A study of Rattus norvegicus with 6 samples.

Results

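The genes described here encode the proteins of the mitochondrial ribosome, and they were read in colon epithelium of rats given melatonin or its vehicle. Members were the transcripts of the expression table whose RefSeq rat symbols begin with Mrpl or Mrps followed by a digit, with the transcripts of a gene added up. There were 70 such genes, from 73 transcripts, of 13104 genes or unmatched transcripts in the table, 12340 of which had a symbol. The symbols of 3 members (Mrpl9, Mrpl11 and Mrpl24) are spelled in lower case in the annotation and were taken as members. The sequenced RNA was that of the colon's inner layer, its epithelium, in 6 adult Wistar rats, all male and all without a pineal gland. At the start of subjective night 3 rats were injected with melatonin at 1 mg/kg and 3 with the vehicle, 2.5% ethanol in phosphate-buffered saline, and tissue was taken 4 h later. Vehicle animals are numbered 1 to 3 and melatonin animals 4 to 6, as in the labels. All animals lacked the pineal, so no animal with its own nightly melatonin is in the comparison.

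Mitochondria translate the few proteins encoded in their own genome, all of them parts of the respiratory chain or of ATP synthase, on a ribosome of their own. The ribosomal RNAs of this ribosome come from mitochondrial DNA, whereas every protein is encoded in the nucleus, made in the cytosol and imported. Some of these proteins descend from bacterial ribosomal proteins, and others exist in mitochondria alone. Colonocytes depend on mitochondrial oxidation of butyrate, a product of the gut bacteria, for much of their energy.

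Of the 70 members, 47 encode proteins of the large subunit and 23 proteins of the small subunit. Placement followed the structure of the ribosome, so Mrps30 and Mrps18a, whose proteins sit in the large subunit despite their names, were counted there. In the classes used here 41 members have a bacterial counterpart in the ribosome, 28 of the large subunit and 13 of the small, and 29 are counted as specific to mitochondria, 19 large and 10 small. Mrps18a and Mrps18b, related in sequence to a bacterial protein, are among the 29, since only Mrps18c was counted as its counterpart. In the list of Mrpl and Mrps genes drawn up for this ribosome there were 77, 51 large and 26 small. Rows that the table's own description column gives as mitochondrial proteins L43, S28 and S10 matched no RefSeq symbol, fell outside the rule and were left out of every count. The L43 row stood at 65.82, 57.80 and 68.21 FPKM (fragments per kilobase of transcript, scaled to the depth of the library) in the vehicle animals and at 52.20, 66.79 and 56.21 FPKM in the melatonin animals.

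Depth, estimated from the steps between the lowest values, was 3255000 to 3580000 fragments per library, and 12057 to 12323 transcripts were above 0. Epithelial markers were high, with Epcam at 1136 to 1252 FPKM and Krt8 at 2895 to 3592 FPKM. Markers of fibroblasts summed to 1.5 to 4.0 FPKM over 6 genes and those of endothelium to 2.3 to 4.9 FPKM over 5 genes. Smooth muscle markers summed to 47.1 to 70.4 FPKM over 6 genes, of which Mylk gave 37.04 to 62.00 FPKM. Acta2 and Actg2, the only 2 with a mean under 1 FPKM, stayed at or below 0.23 FPKM. The other 4, Mylk included, had a median of 4.31 FPKM after vehicle and 3.94 FPKM after melatonin. Markers of macrophages and dendritic cells summed to 97.4 to 161.5 FPKM over 6 genes, of which Cd14 gave 91.88 to 150.15 FPKM. Adgre1, at most 0.35 FPKM, was the only 1 of the 6 with a mean under 1 FPKM. The other 5, Cd14 included, had a median of 2.02 FPKM after vehicle and 2.75 FPKM after melatonin. The summed level of 14 interferon-response genes was 119.8 to 131.9 FPKM in the vehicle animals and 109.3, 303.3 and 314.4 FPKM in melatonin animals 4, 5 and 6, so melatonin animal 4 stood apart from the other 2 of its group. A list of 13 cell cycle genes summed to 191.3 to 267.4 FPKM after vehicle and 229.3 to 337.4 FPKM after melatonin, with animal 5 the highest. Over 9 markers of T and NK cells the sum was 4.5 to 12.8 FPKM after vehicle and 8.0 to 25.8 FPKM after melatonin.

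Promoters of 58 members were found in the RefSeq table of rat promoters (build GRCr8, 250 bases before to 50 after the start of the gene). They were searched on both strands for the letters of 3 motifs tied to nuclear genes of mitochondria: GCGCATGCG of NRF1, CCGGAAG of the ETS factors, to which GABP belongs, and AAGATGGCG of YY1. The first of these is nearly its own reverse complement, so its matches on the 2 strands can overlap. Below are 100 bases, from 80 before the start to the 20 that follow it, for 4 of the most abundant members, for Mrps18a and Mrps18b, which like Mrpl36 held more than 1 kind of motif, and for Mrpl12, an abundant member with none. Capitals mark the motif letters, on either strand.
Mrpl57: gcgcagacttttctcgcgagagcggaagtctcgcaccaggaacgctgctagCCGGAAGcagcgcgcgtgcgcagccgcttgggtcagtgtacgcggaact
Mrps21: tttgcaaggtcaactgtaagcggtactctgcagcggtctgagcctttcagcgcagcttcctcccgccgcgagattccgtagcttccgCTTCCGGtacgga
Mrpl52: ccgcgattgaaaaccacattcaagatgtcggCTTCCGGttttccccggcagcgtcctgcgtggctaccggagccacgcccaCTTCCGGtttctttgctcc
Mrpl36: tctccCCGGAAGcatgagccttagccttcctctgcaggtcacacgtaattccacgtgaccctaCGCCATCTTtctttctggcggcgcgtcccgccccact
Mrps18a: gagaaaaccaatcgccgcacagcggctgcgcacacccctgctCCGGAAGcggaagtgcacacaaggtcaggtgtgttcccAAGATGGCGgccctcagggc
Mrps18b: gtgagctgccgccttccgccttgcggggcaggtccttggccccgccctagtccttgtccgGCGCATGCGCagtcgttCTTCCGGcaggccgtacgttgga
Mrpl12: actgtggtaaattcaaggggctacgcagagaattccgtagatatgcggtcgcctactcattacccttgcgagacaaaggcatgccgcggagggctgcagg
In the order printed they lie at chr15:36086377-36086476 (plus strand), chr2:186103332-186103431 (minus), chr15:31852856-31852955 (plus), chr1:31795102-31795201 (minus), chr9:22367361-22367460 (minus), chr20:2842926-2843025 (plus) and chr10:106256666-106256765 (plus) of GRCr8.

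The ETS letters were present in 19 of the 58 member promoters (32.8%), against 19.7% of the 7880 promoters of genes tested in the colon and 8.75% of all 33469 promoters in the RefSeq table. The YY1 letters were present in 8 member promoters (13.8%), against 3.95% and 1.73%. The NRF1 letters were present in 5 (8.62%), against 3.44% and 1.52%. At least 1 of the 3 was found in 28 member promoters (48.3%), against 25.0% of those of the tested genes and 11.3% of all, and 30 members had none. The median GC content was 56.0% in member promoters, 60.7% in those of tested genes and 51.7% in all, so the members were less GC-rich than the tested genes. Of the 21 ETS matches, 20 lay from 100 bases before the start to 50 after it, as in the windows of Mrpl57, Mrps21 and Mrpl52 above. The 19 members with the ETS letters had a median level of 35.39 FPKM and the 39 without them 24.02 FPKM. These shares and medians describe matching letters and were not tested.

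The members were expressed at moderate and similar levels. Mean FPKM over the 6 animals ran from 9.73 for Mrpl50 to 138.1 for Mrpl57, a 14.2-fold span, with a median of 25.3 FPKM, and 55 of the 70 lay within 2-fold of that median. All 70 passed the filter of a mean of at least 1 FPKM, and none was listed at 0 in any animal. The median in the vehicle animals was 25.1 FPKM, against 170.7 FPKM for 39 nuclear genes of the respiratory chain and 500.6 FPKM for 56 genes of the cytosolic ribosome. Medians for the large subunit (24.87 FPKM) and the small (25.72 FPKM), and for members with a bacterial counterpart (25.86 FPKM) and without (24.87 FPKM), were close.

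**Figure D1:**
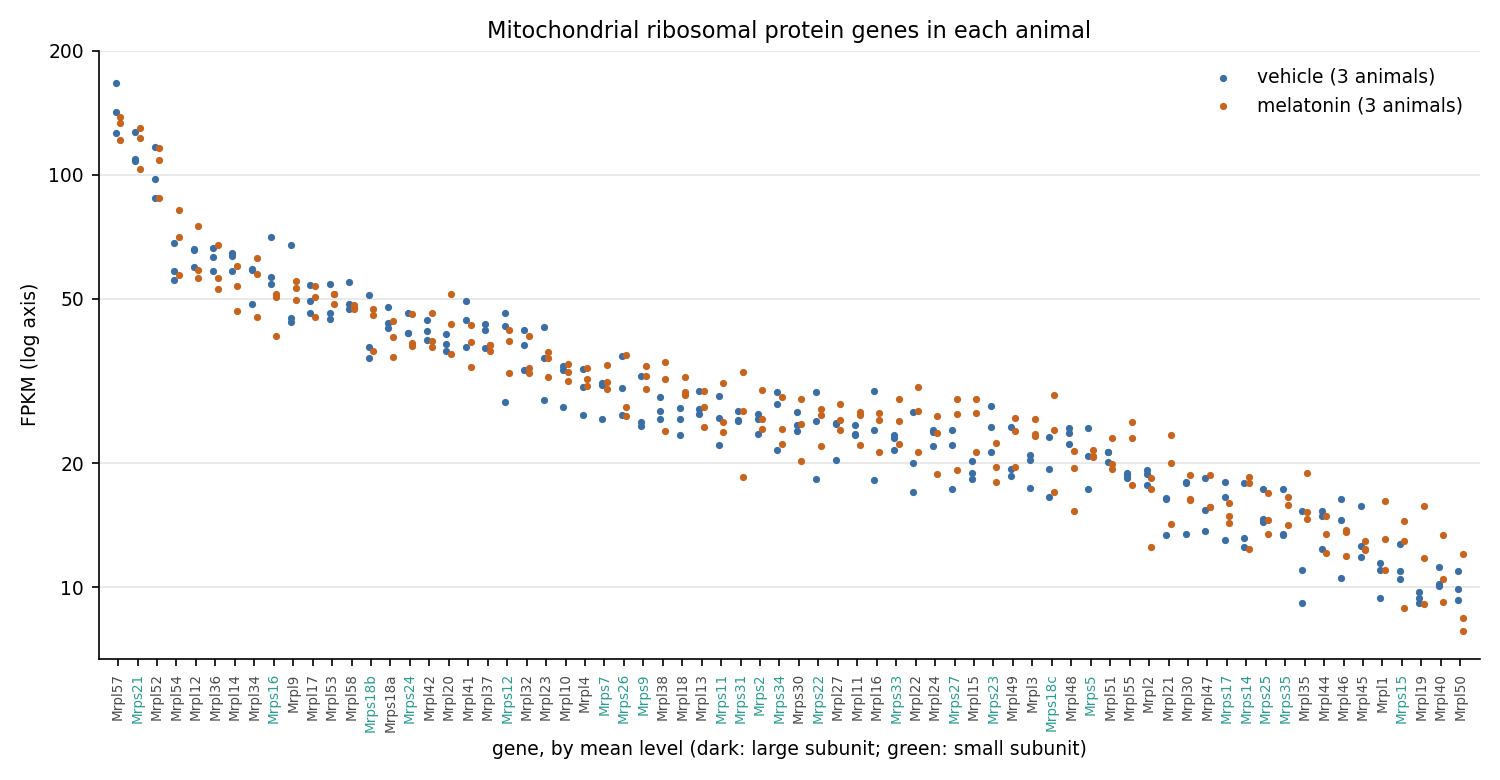
FPKM of each of the 70 mitochondrial ribosomal protein genes in each of the 6 animals on a log axis, with genes ordered by mean level, points coloured by treatment and gene names by subunit. By mean level 63 members lie between 10 and 60 FPKM and 3 exceed 100 FPKM, and blue and orange points overlap for most genes.

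The most abundant member was Mrpl57, a small mitochondria-specific protein of the large subunit, with 126.29, 167.20 and 141.93 FPKM after vehicle and 121.61, 133.25 and 138.30 FPKM after melatonin. Mrps21, a small-subunit protein with a bacterial counterpart, followed at 127.10, 108.26 and 109.36 FPKM after vehicle and 122.67, 103.56 and 129.64 FPKM after melatonin. Mrpl52, another mitochondria-specific protein of the large subunit, had 88.10, 97.97 and 116.81 FPKM after vehicle and 87.89, 108.69 and 115.97 FPKM after melatonin. In all 3 genes the groups overlapped. Mrpl54 (mean 65.5 FPKM), Mrpl12 (63.7 FPKM) and Mrpl36 (60.8 FPKM) completed the 6 members above 60 FPKM. Transcripts of 5 of these 6 are shorter than 1000 bases, and over the 70 members length and level had a Spearman rank correlation of -0.50, given as a description since both enter FPKM.

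At the lower end stood Mrpl50, Mrpl40, Mrpl19 and Mrps15, the 4 members under 12 FPKM. Mrpl50, a mitochondria-specific protein of the large subunit, had 10.96, 9.88 and 9.31 FPKM after vehicle and 7.82, 12.02 and 8.41 FPKM after melatonin, so the groups overlapped. Mrpl19, whose bacterial counterpart lies at the interface of the subunits, had 9.13, 9.42 and 9.72 FPKM after vehicle and 9.10, 11.79 and 15.76 FPKM after melatonin. Its melatonin animals spread from just below the lowest vehicle value to well above the highest. The means of Mrpl40 (10.8 FPKM) and Mrps15 (11.7 FPKM) differed from these by less than the spread between animals.

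The order of the members was much the same in every animal, with rank correlations of 0.904 to 0.957 over the 70 genes in the 15 pairs of animals. The highest animal exceeded the lowest by a median of 1.39-fold, by over 1.5-fold in 21 members, and by over 2-fold in Mrpl35 alone. Estimated reads per member averaged 38.6 to 344.1 per library. The median SD within groups was 0.17 on the log2 scale, where counting error alone would give 0.14, and in 20 members the SD was smaller than that of counting. The widest spreads were those of Mrps18c, Mrps12, Mrps31 and Mrpl22. Mrps12, whose bacterial counterpart is part of the decoding centre, had 46.23, 28.11 and 43.01 FPKM after vehicle and 41.94, 39.52 and 33.09 FPKM after melatonin. Vehicle animal 2 was the lowest of the 6, and the groups overlapped.

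For 3 members the table gives 2 transcripts, and in each 1 of them carried most of the signal. The 482-base transcript of Mrps21 had 98.44 to 120.71 FPKM after vehicle and 93.43 to 122.05 FPKM after melatonin, whereas the 620-base transcript had 3.53 to 10.92 and 7.59 to 12.42 FPKM. The 768-base transcript of Mrpl14 had 56.33 to 62.87 FPKM after vehicle and 42.35 to 56.90 FPKM after melatonin, and its 812-base transcript no more than 4.34 FPKM in any animal. For Mrps27 the 1345-base transcript led in every animal. The sources used here do not say how reads were divided between such transcripts. The annotation also names 40 pseudogenes with Mrpl or Mrps symbols, not all of them copies of members. Such copies were named for 21 members, with 9 for Mrpl30 and 2 each for Mrpl15, Mrpl1 and Mrps16. Reads shared with such copies could not be separated.

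Melatonin against vehicle was the comparison made by the design, and it asks which transcripts of the colon epithelium differ after 1 injection of the hormone. No member passed an adjusted p of 0.05, and the direction of the members was mixed, with 38 of 70 above 0 on the log2 scale and 32 below. These are 54.3% and 45.7% of the members, against 46.0% above and 54.0% below among all genes tested. By limma on log2(FPKM + 1), adjusted over 10137 genes, 0 of 70 members were called, with adjusted p of 0.972 or more. The same test called 0 of all 10137 genes (0.0%). At an unadjusted p under 0.05 limma gave 3 members (4.29%), against 380 of all genes (3.75%). Of the 3, 2 were higher after melatonin (Mrpl15 and Mrpl3), as were 1.82% of all genes, and 1 was lower (Mrps16), as were 1.92%. With median-of-ratios or upper-quartile scaling 3 were higher and 0 lower (4.29%), against 4.16% and 4.15% of all genes in either direction. Without vehicle animal 3 there were 0 in either direction, against 2.49% of all genes. Without vehicle animal 2 there were 3 higher and 1 lower (5.71%), against 2.68% of all genes. Limma voom on reads estimated from FPKM, length and depth also called 0 members, with 1 at an unadjusted p under 0.05 where 3.43% of all genes were. In RNA of the epithelium as a whole, fewer cells of a type and less RNA per cell cannot be told apart.

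The differences were bounded as well as not called. The estimated log2 changes ran from -0.34 for Mrps16 to 0.45 for Mrpl35, or from 0.79-fold to 1.36-fold on the scale of FPKM + 1. The 95% interval of every member, not adjusted for the number of genes, lay within 1 log2 unit of 0, and for 49 of the 70 it lay within 0.5. The outermost bounds were -0.67 and 0.91, and the median half-width was 0.33. A log2 change of 1 in either direction thus lay outside the interval of each member, whereas differences under about 0.33 could not be resolved for a typical one.

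**Figure D2:**
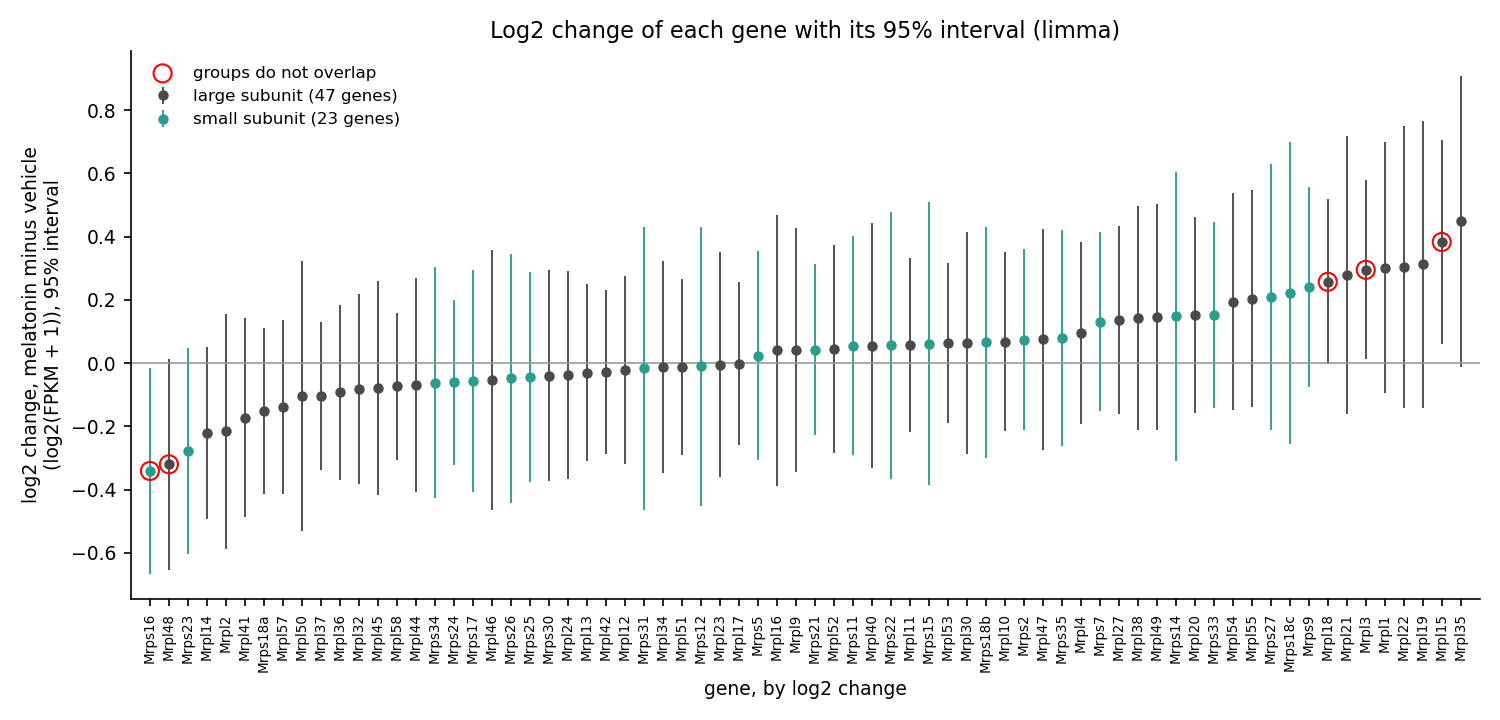
Log2 change of each of the 70 members, melatonin against vehicle, from limma on log2(FPKM + 1), with unadjusted 95% intervals, ordered by change and coloured by subunit, with red circles on the 5 members whose groups did not overlap. The estimates run from -0.34 to 0.45, and no interval reaches 1 unit from 0.

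Groups did not overlap in 5 members (7.14%), against 8.38% of all 10137 genes, a share near the background. All melatonin values lay above all vehicle values in 3 of them, Mrpl15, Mrpl3 and Mrpl18 (4.29%, against 4.04% of all genes). All lay below in 2, Mrps16 and Mrpl48 (2.86%, against 4.33%). Mrpl15, whose bacterial counterpart is a core protein of the large subunit, had 20.21, 18.25 and 18.92 FPKM after vehicle and 21.22, 28.54 and 26.46 FPKM after melatonin. The groups did not overlap, but melatonin animal 4 lay just above the highest vehicle animal and the other 2 well above it. The limma log2 change was 0.38 ± 0.14 (SE, n = 3 per group), with an unadjusted p of 0.0251 and an adjusted p of 0.972.

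Mrpl3, whose bacterial counterpart reaches towards the peptidyl transferase centre, had 20.29, 17.41 and 20.87 FPKM after vehicle and 23.29, 25.57 and 23.55 FPKM after melatonin. Its lowest melatonin animal was 4 again, above every vehicle animal, and the log2 change was 0.29 ± 0.12 (SE). Mrpl18, which belongs to the central protuberance of the large subunit, had 27.23, 25.51 and 23.34 FPKM after vehicle and 29.74, 32.43 and 29.26 FPKM after melatonin. The gap between its groups was narrow, and the log2 change was 0.26 ± 0.11 (SE).

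Mrpl35, with the highest estimate (0.45 ± 0.20, SE), overlapped between groups. It had 9.14, 15.32 and 11.01 FPKM after vehicle and 14.64, 15.24 and 18.90 FPKM after melatonin, and vehicle animal 2 lay above melatonin animals 4 and 5. Its log2 change was 0.29 without vehicle animal 1, 0.34 without melatonin animal 6 and 0.64 without vehicle animal 2. Mrpl1, whose bacterial counterpart forms the mobile stalk beside the exit site of transfer RNA, had 10.98, 11.45 and 9.41 FPKM after vehicle and 11.01, 13.07 and 16.20 FPKM after melatonin, and melatonin animal 4 lay within the vehicle range. Its log2 change of 0.30 was 0.17 without melatonin animal 6. Mrps9, of the small subunit, had 25.12, 32.53 and 24.57 FPKM after vehicle and 32.46, 34.38 and 30.18 FPKM after melatonin, with overlap through vehicle animal 2. Its log2 change of 0.24 was 0.37 without that animal.

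Mrps16 had the lowest estimate. This small-subunit protein, with a bacterial counterpart that helps to assemble the subunit, had 54.32, 56.58 and 70.74 FPKM after vehicle and 40.63, 50.68 and 51.30 FPKM after melatonin. No melatonin value reached the vehicle range, and vehicle animal 3 stood above the rest. The limma log2 change was -0.34 ± 0.14 (SE), with an unadjusted p of 0.0423 and an adjusted p of 0.972. It was -0.23 without vehicle animal 3 (unadjusted p by limma 0.163), and the unadjusted p was 0.0749 with median-of-ratios scaling, 0.0559 with upper-quartile scaling and 0.0785 by limma voom. Mrpl48, a mitochondria-specific protein of the central protuberance, had 23.61, 22.27 and 24.38 FPKM after vehicle and 15.33, 21.35 and 19.48 FPKM after melatonin. The groups did not overlap, melatonin animal 4 was the lowest of the 6, and the log2 change was -0.32 ± 0.15 (SE), or -0.19 without that animal.

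Below these came Mrps23, Mrpl14, Mrpl2 and Mrps18a, all with overlapping groups. Mrps23, a mitochondria-specific protein of the small subunit, had 27.54, 21.32 and 24.48 FPKM after vehicle and 17.99, 22.34 and 19.52 FPKM after melatonin. Mrpl14, whose bacterial counterpart contacts the small subunit, had 64.78, 58.57 and 63.43 FPKM after vehicle and 46.69, 60.25 and 53.62 FPKM after melatonin. In both genes melatonin animal 4 was the lowest of the 6 and melatonin animal 5 lay within the vehicle range. Without animal 4 the log2 change of Mrpl14 was -0.13, against -0.22 with it. Mrpl2, a core protein near the peptidyl transferase centre in bacteria, had 18.80, 17.71 and 19.29 FPKM after vehicle and 18.40, 17.30 and 12.51 FPKM after melatonin, and its log2 change of -0.22 was -0.06 without animal 6.

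**Figure D3:**
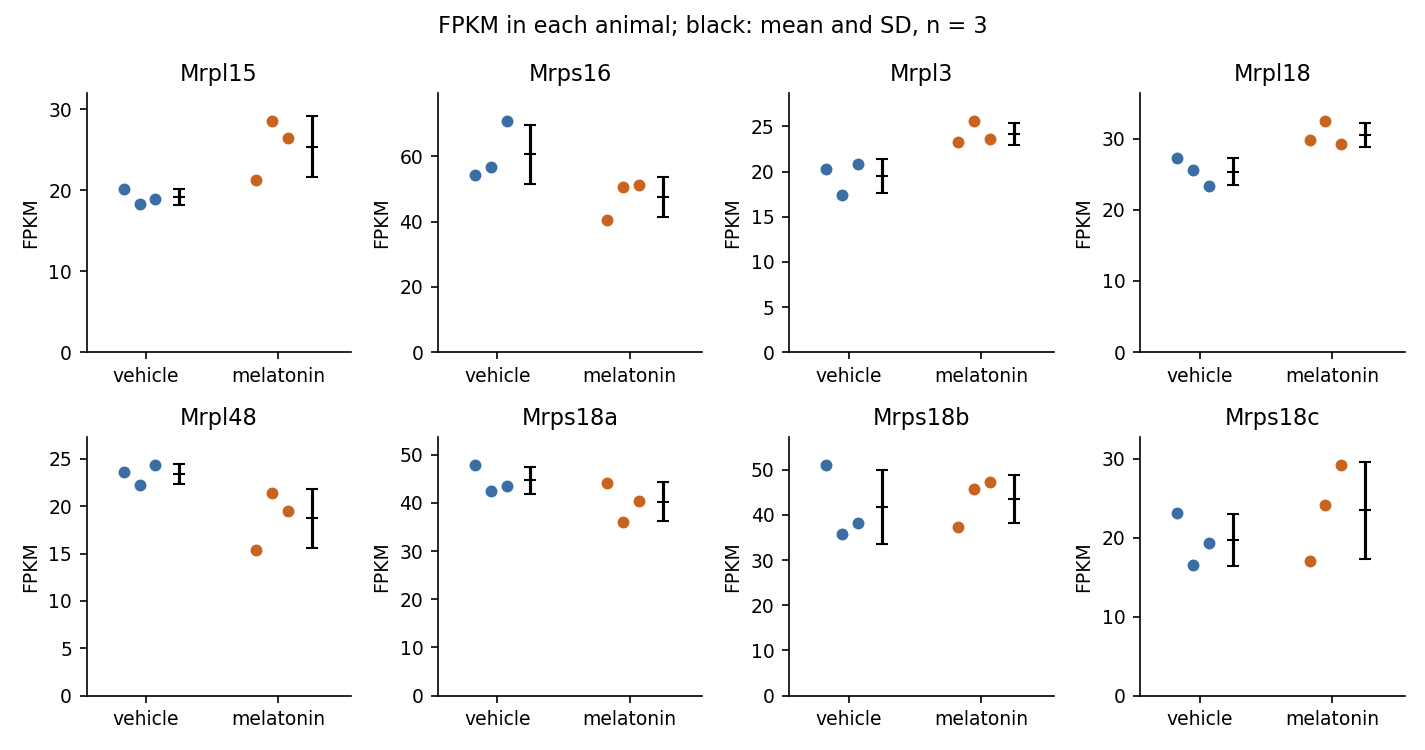
FPKM in each animal of the 5 members whose groups did not overlap and of Mrps18a, Mrps18b and Mrps18c, with vehicle animals 1 to 3 and melatonin animals 4 to 6 from left to right in each group, and black bars for the mean and SD (n = 3). Each axis starts at 0, and the groups are separate for Mrpl15, Mrps16, Mrpl3, Mrpl18 and Mrpl48 and overlap for the Mrps18 genes.

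Members with well-known tasks overlapped between groups. Mrpl12, the stalk protein that recruits translation factors, had 65.88, 59.88 and 66.04 FPKM after vehicle and 56.09, 75.26 and 58.83 FPKM after melatonin, spanning the vehicle range on both sides. Mrpl10, which anchors that stalk, had 27.39, 34.43 and 33.61 FPKM after vehicle and 33.24, 34.83 and 31.70 FPKM after melatonin. Mrpl11, at the base of the stalk, had 23.41, 23.57 and 24.75 FPKM after vehicle and 22.15, 26.18 and 26.61 FPKM after melatonin. The estimates for these 3 were -0.02, 0.07 and 0.06 on the log2 scale, each smaller than its SE.

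Mrpl58, a peptidyl-tRNA hydrolase built into the large subunit, was among the steadiest, with 55.04, 47.34 and 48.51 FPKM after vehicle and 47.38, 47.43 and 48.26 FPKM after melatonin. Mrpl45, which holds the ribosome to the inner membrane, had 11.86, 15.71 and 12.59 FPKM after vehicle and 12.91, 12.40 and 12.29 FPKM after melatonin. Mrpl44, which carries a ribonuclease III-like fold, had 14.91, 12.39 and 15.31 FPKM after vehicle and 12.13, 13.43 and 14.88 FPKM after melatonin. All 3 overlapped, with estimates of -0.07, -0.08 and -0.07 on the log2 scale. Mrps27, a pentatricopeptide repeat protein of the small subunit, had 17.34, 22.08 and 24.10 FPKM after vehicle and 19.28, 28.64 and 26.31 FPKM after melatonin. Melatonin animals 5 and 6 lay above every vehicle animal and animal 4 among them.

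Mrps18a, Mrps18b and Mrps18c are 3 genes related in sequence to 1 bacterial protein, of which only Mrps18c was counted above as having a bacterial counterpart. Mrps18a, of the large subunit, had 47.94, 42.58 and 43.62 FPKM after vehicle and 44.23, 36.15 and 40.34 FPKM after melatonin. Mrps18b had 51.10, 35.88 and 38.19 FPKM after vehicle and 37.34, 45.75 and 47.22 FPKM after melatonin. Mrps18c had 23.14, 16.56 and 19.37 FPKM after vehicle and 17.05, 24.12 and 29.23 FPKM after melatonin, the widest spread within groups of any member (0.31 on the log2 scale). Groups overlapped in all 3, the first 2 stood at about the same mean level (42.5 and 42.6 FPKM), and Mrps18c at 21.6 FPKM. Estimates were -0.15 for Mrps18a (-0.08 without melatonin animal 5), 0.07 for Mrps18b and 0.22 for Mrps18c.

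Summed over the 70 members, the level was 2331.1, 2244.1 and 2317.2 FPKM in the vehicle animals and 2199.5, 2393.5 and 2364.9 FPKM in the melatonin animals. Melatonin animal 4 was the lowest of the 6 and animals 5 and 6 the highest, so the groups overlapped. The means were 2297.5 ± 46.7 FPKM (SD, n = 3) and 2319.3 ± 104.7 FPKM (SD, n = 3). As a share of all FPKM the members took 0.421% to 0.446% in each animal. The large subunit summed to 1596.8, 1598.5 and 1612.2 FPKM after vehicle and 1524.7, 1682.4 and 1646.2 FPKM after melatonin, spreading far more in the second group. The small subunit summed to 734.2, 645.6 and 705.0 FPKM after vehicle and 674.8, 711.1 and 718.7 FPKM after melatonin. The large-to-small ratio was 2.18 to 2.48 after vehicle and 2.26 to 2.37 after melatonin.

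The animals of the melatonin group differed among themselves. Against the vehicle mean, the median member of melatonin animals 4, 5 and 6 stood at -0.04, 0.10 and 0.07 on the log2 scale, whereas vehicle animals stood at 0.05, -0.05 and 0.00. The median of all tested genes was 0.04, 0.00 and -0.09 in the same melatonin animals, and -0.008, 0.013 and -0.002 in vehicle animals 1, 2 and 3. In animal 4, 10 members (14.3%) exceeded every vehicle animal and 21 (30.0%) lay under every one, against 28.7% and 17.6% of all tested genes. In animal 5, 25 members (35.7%) were above and 10 (14.3%) below, against 26.1% and 26.7%. In animal 6, 28 members (40.0%) were above and 18 (25.7%) below, against 21.4% and 41.0%. Relative to all genes, members thus stood lower in animal 4 and higher in animals 5 and 6. The pattern was not theirs alone: the median of 19 genes of mitochondrial protein import and quality control was -0.09, 0.19 and 0.13 in animals 4, 5 and 6. The median of 39 nuclear genes of the respiratory chain was -0.16, -0.02 and -0.10. Relative to all genes it was lower in animal 4 but not higher in animals 5 and 6. The 2 animals with higher member levels, 5 and 6, were also those with the higher interferon-response sums given above, and animal 5 had the highest cell cycle sum. The part of either in the members' values was not tested.

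**Figure D4:**
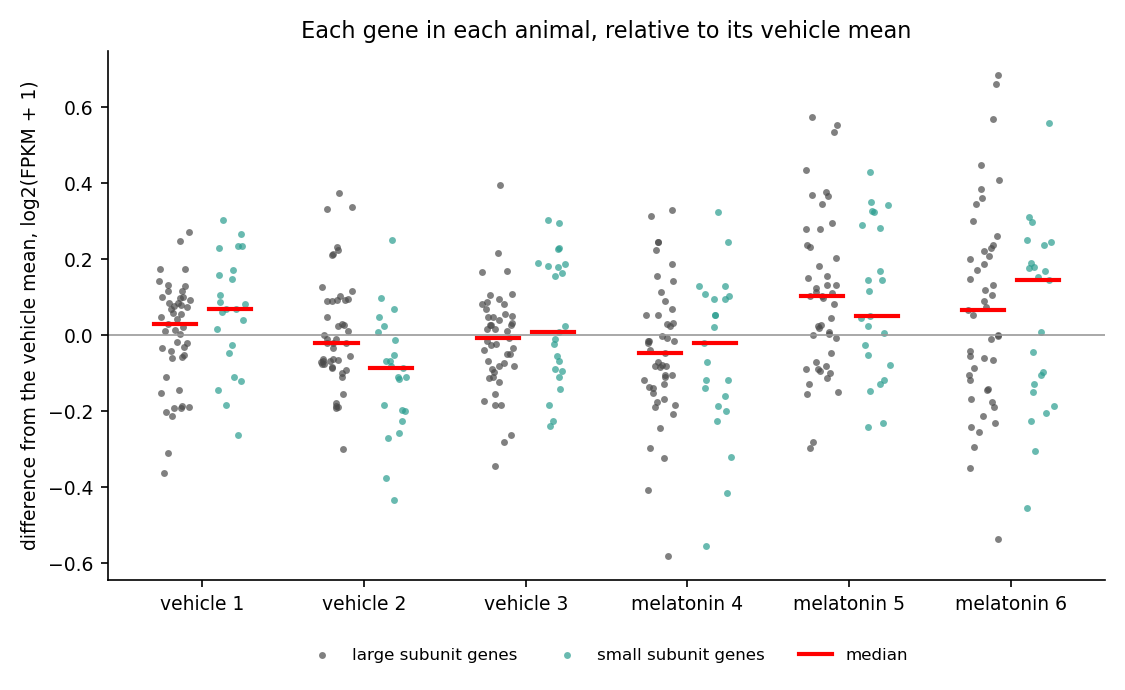
Log2 difference of each of the 70 members from its mean over the vehicle animals, in each of the 6 animals, on the log2(FPKM + 1) scale, with large-subunit and small-subunit genes side by side and a red line at the median of each. Medians over all members are close to 0 in every animal, at -0.04, 0.10 and 0.07 in melatonin animals 4, 5 and 6.

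Without melatonin animal 4, limma called 0 of the 70 members and 4 of all 10125 genes tested. The lowest adjusted p by limma among the members was 0.291. Then 8 members had an unadjusted p under 0.05, all higher: Mrpl15, Mrpl21, Mrpl19, Mrpl55, Mrpl1, Mrpl54, Mrpl38 and Mrps18c. They are 11.4% of the members. Of all genes tested in that fit, 11.4% passed in either direction, and 4.79% of all genes tested passed and were higher. Members above 0 then numbered 46 and those below 24.

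By class, the median log2 change was 0.04 over all 70 members, with quartiles of -0.06 and 0.14, against -0.02 over all 10137 genes, with quartiles of -0.14 and 0.11. It was 0.04 in the large subunit (24 above 0, 23 below) and 0.06 in the small (14 above, 9 below). Members with a bacterial counterpart had a median of 0.06, with 27 above 0 and 14 below. Mitochondria-specific members had a median of -0.04, with 11 above and 18 below. Without melatonin animal 4 both medians were higher, at 0.09 (29 above 0, 12 below) and 0.01 (17 above, 12 below) in the same order. In the large subunit the medians of these classes were 0.07 and -0.05, and in the small subunit they were 0.06 and 0.02. No p was computed for a class.

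Other proteins of the same ribosome without an Mrpl or Mrps symbol, 5 in the list, were also measured. Dap3, a small-subunit protein also known from cell death, had 21.64, 24.60 and 29.26 FPKM after vehicle and 17.18, 23.82 and 20.84 FPKM after melatonin. Chchd1, also of the small subunit, had 38.32, 26.13 and 28.52 FPKM after vehicle and 38.74, 42.40 and 33.48 FPKM after melatonin. In both the groups overlapped, and of the 5 none was called, with 4 above 0 and 1 below.

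Of the genes that build, serve or supply this ribosome, none was called by limma in any list. In the list of assembly factors and ribosomal RNA modifiers, 21 of 27 symbols were tested, with 12 above 0, 9 below and a median of 0.02. The 27 hold both Eral1, which was tested, and the similar symbol Era1, which matched no gene measured. Ddx28, an RNA helicase of large-subunit assembly, had 12.32, 13.70 and 11.20 FPKM after vehicle and 9.67, 7.85 and 10.85 FPKM after melatonin, without overlap (adjusted p by limma 0.972). Of the 21, 2 lay below without overlap, Ddx28 and Mrm2 (9.52%, against 4.33% of all genes), and 1 above, Mettl15 (4.76%, against 4.04%). Mettl15 had 2.07, 2.28 and 2.31 FPKM after vehicle and 2.74, 3.31 and 2.53 FPKM after melatonin. The highest estimates were those of Rcc1l (0.45) and Noa1 (0.41), which overlapped. For translation factors 16 of 18 were tested, with 7 above 0 and 9 below. Mtif2, the initiation factor that brings the first transfer RNA, had 10.31, 11.24 and 10.67 FPKM after vehicle and 8.76, 7.01 and 8.16 FPKM after melatonin. Every melatonin value lay below every vehicle value, with a log2 change of -0.39 ± 0.15 (SE), an unadjusted p of 0.0303 and an adjusted p of 0.972 by limma. Tsfm, an elongation factor, also had no overlap, with 15.06, 12.12 and 13.48 FPKM after vehicle and 11.13, 12.05 and 9.12 FPKM after melatonin. These 2 are 12.5% of the 16 factors tested, against 4.33% of all genes with every melatonin value below, and none of the 16 had every value above.

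Among the synthetases that load mitochondrial transfer RNAs 14 of 17 were tested, with 9 above 0, 5 below and a median of 0.11. Ears2 had 3.63, 3.64 and 3.23 FPKM after vehicle and 4.46, 5.35 and 5.51 FPKM after melatonin, and Aars2 had 7.14, 7.33 and 6.02 FPKM after vehicle and 9.41, 8.30 and 9.08 FPKM after melatonin. Both were above the vehicle range in every melatonin animal, 2 of 14 synthetases (14.3%) where 4.04% of all genes were, and both had an adjusted p of 0.972 by limma. For transcription and upkeep of mitochondrial DNA 17 of 18 were tested, 7 above 0 and 10 below. Ssbp1, which coats single-stranded mitochondrial DNA, had 27.28, 37.74 and 25.56 FPKM after vehicle and 21.14, 20.54 and 25.91 FPKM after melatonin, with overlap through melatonin animal 6. Elac2, which trims the ends of transfer RNAs, was the only gene of that list without overlap, with 7.84, 9.29 and 9.57 FPKM after vehicle and 10, 13.05 and 11.08 FPKM after melatonin (log2 change 0.32 ± 0.16, SE). It was 1 of 17 (5.88%) with every melatonin value above, against 4.04% of all genes.

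The regulators whose motifs were searched above also overlapped between groups. Nrf1 had 13.51, 14.90 and 12.59 FPKM after vehicle and 13.54, 12.26 and 10.64 FPKM after melatonin. Gabpa, the DNA-binding part of GABP, had 12.66, 12.94 and 15.06 FPKM after vehicle and 12.97, 14.21 and 12.29 FPKM after melatonin. Yy1 had 53.79, 38.10 and 47.31 FPKM after vehicle and 52.04, 54.26 and 43.94 FPKM after melatonin. In the list of regulators 9 of 10 were tested, with 5 above 0 and 4 below.

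The nuclear genes of the respiratory chain, whose protein partners this ribosome makes, had a median of -0.08, with 6 of 39 above 0 and 33 below, and the cytosolic ribosome had a median of -0.02, with 21 of 56 above 0 and 35 below. Ndufs7, a subunit of complex I, had 171.03, 158.80 and 170.12 FPKM after vehicle and 144.02, 136.02 and 126.60 FPKM after melatonin, without overlap (log2 change -0.30 ± 0.09, SE, unadjusted p 0.0107, adjusted p 0.972 by limma). It was 1 of 4 of the 39 (10.3%) with every melatonin value below every vehicle value, against 4.33% of all genes. The median SD within groups was 0.17 for the members, 0.11 for the respiratory chain and 0.08 for the cytosolic ribosome on the log2 scale. It thus fell as the median level of the list rose. Counting error alone would give 0.14, 0.06 and 0.04 in the same order. Whether the lists differ from each other was not tested.

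**Figure D5:**
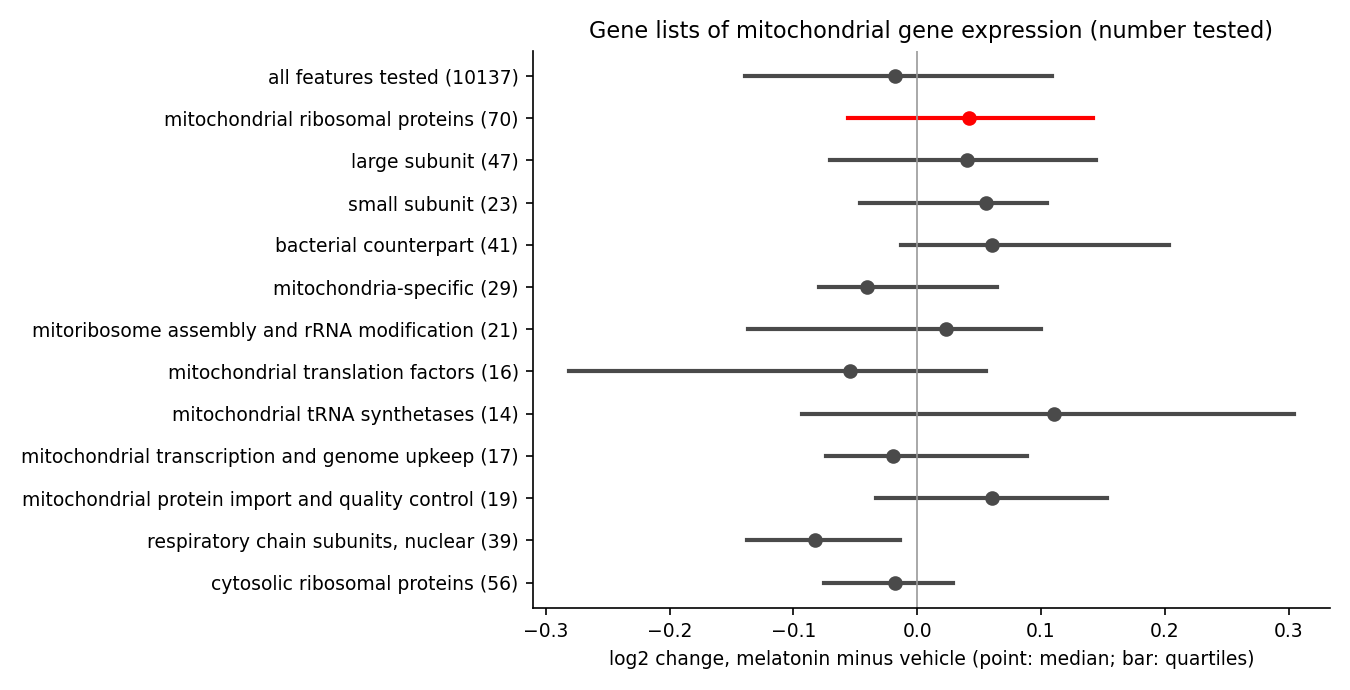
Log2 changes, melatonin against vehicle, of the members, their classes, related lists and all features tested, with a point for the median over the genes and a bar from the lower to the upper quartile. Medians run from -0.08 for the respiratory chain to 0.11 for the tRNA synthetases.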

How the data were processed

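RNA-seq was done on colon epithelium of 6 rats, 3 per group. The authors deposited 1 table of FPKM per transcript, with a log2 ratio and a score for the comparison, and transcript lengths. Build rn6 and the tools Bowtie2, RSEM and BWA (0.7.10-r789) are named, per the submitters' processing notes, with no role given. The log2 ratios in the authors' deposited table ran from -0.349 to 0.532 over the members and the scores reached 0.535; both were only compared. How the score was computed is not given in the sources used here.

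Of 13647 transcripts, 12883 matched a RefSeq symbol (GRCr8, used for names and promoters) and 764 did not. FPKM was summed per gene. Genes with a mean of at least 1 FPKM entered limma (3.58.1, R 4.3.3; eBayes with trend, two-sided tests) as log2(FPKM + 1), Benjamini-Hochberg adjusted over all 10137 at 0.05. The scale understates changes of low genes. The script was tested on simulated data. Depth came from the steps of values under 8 reads in transcripts of 200 to 1500 bases: 90.8% to 93.3% of these were whole reads within 0.1. Estimated reads went to limma voom as an alternative.

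The alternatives were a pseudocount of 0.1, other filters, median-of-ratios and upper-quartile scaling, unsummed transcripts and each animal left out. Named members were those highest, lowest, smallest in p in each direction, without overlap, most variable, or of known role. Gabpa and Yy1 were named for the motifs, and Mrpl21, Mrpl55, Mrpl38, Mrm2 and Mettl15 after their values were seen. Members and lists were chosen with earlier results of these data known. Labels do not say whether the animals share a litter or day, and the p-values measure the spread between these animals only.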

Additional observations from a re-analysis of the deposited data

How the results depend on the processing

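No mitochondrial ribosomal protein gene was called by limma under any alternative, and the smallest adjusted p of a member ranged from 0.291, without melatonin animal 4, to 1. The number of genes called over the whole table was 0, and it was 1 with no filter on low values and 0 to 4 when each animal was left out, with 4 without melatonin animal 4 and 3 without vehicle animal 1; the cause was not tested. The median log2 change of the members ranged from 0.007 to 0.062, that of the large subunit from 0.001 to 0.059 and that of the small subunit from 0.002 to 0.075. The named members with the smallest p kept their direction under every alternative run. Of 70 members, 54.3% were above 0, and 62.9% were with median-of-ratios scaling. No paired analysis was possible because the vehicle animals are numbered 1 to 3 and the melatonin animals 4 to 6, so the groups share no number. Precision is limited by 3 animals per group and by a median of 99.9 estimated reads per member and library.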
